A study of Mus musculus with 4 samples.

Results

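Lin28a, Lin28b, Dgcr8 and the pluripotency microRNA genes Mir290a, Mir294, Mir295, Mir302a and Mir367 were examined for binding of the transcription factor Tfcp2l1 in mouse embryonic stem cells. The 8 genes form 5 loci, because Mir290a to Mir295 lie in the miR-290 cluster and Mir302a and Mir367 in the miR-302 cluster. A binding site was counted at a locus when its summit, the position of highest enrichment within a peak, fell inside the locus or within 50 kb of either end. By this rule 35 of the 57614 peaks of repeat 1 and 32 of the 51610 peaks of repeat 2 belonged to the loci. The genes were picked by name and their measured values played no part in the rule, but the choice was made with earlier results of these data known.

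The cells were wild type, received no further treatment and grew in medium containing LIF at 1000 units/mL, the GSK3 inhibitor CHIR99021 at 3 µM and the MEK inhibitor PD0325901 at 1 µM, a mixture called 2i with LIF that holds the cells in the naive state. In each of 2 repeats, chromatin was precipitated with 10 µg of an antibody raised against mouse Tfcp2l1, and 1 ChIP library was compared with 1 input library. All 4 libraries share this genotype and medium, so the data hold no contrast between conditions. Nothing in the labels says that the repeats came from separate cultures, and differences between them may be technical. Binding data carry no expression values, so the labelled cell type could not be checked against marker genes.

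Lin28a and Lin28b are RNA-binding proteins of early embryonic cells that hold back the let-7 microRNAs by binding their precursors. Dgcr8 is the RNA-binding partner of the nuclease Drosha, with which it cuts primary microRNA transcripts into hairpins. The miR-290 cluster is the main microRNA locus of naive mouse embryonic stem cells and the miR-302 cluster that of the primed epiblast, and members of both speed passage from G1 into S phase. Tfcp2l1 belongs to the CP2 family and acts below LIF in the network that keeps the naive state.

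The mature microRNAs are shown because a common seed links the separate loci. The sequences are from RefSeq (GRCm38.p6), 5′ to 3′, with the seed (bases 2 to 8) in capitals.
miR-290a-3p: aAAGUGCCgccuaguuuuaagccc
miR-291a-3p: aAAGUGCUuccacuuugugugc
miR-294-3p: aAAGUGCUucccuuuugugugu
miR-295-3p: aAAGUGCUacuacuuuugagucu
miR-302b-3p: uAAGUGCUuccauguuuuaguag
miR-302d-3p: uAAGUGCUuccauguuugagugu
miR-302c-3p: aAGUGCUUccauguuucagugg
miR-302a-5p: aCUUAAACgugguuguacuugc
miR-367-3p: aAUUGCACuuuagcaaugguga
The seed AAGUGCU was common to miR-291a-3p, miR-294-3p and miR-295-3p of the miR-290 cluster and to miR-302b-3p and miR-302d-3p of the miR-302 cluster. They are the 5 entries with that seed among the 1679 mature mouse microRNAs in the table. The 3p products of Mir302a and Mir292 were not analysed here. The shorter run AAGUGC lay within the first 8 bases of 9 of the 26 mature microRNAs that the table lists for the clusters, and of 18 in the whole table. In miR-302c-3p and miR-290b-3p it began at base 1 and in the other 7 at base 2. The 3p product of Mir367 has a different seed, AUUGCAC, which 6 mature microRNAs of the table carry.

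Each locus had at least 1 peak found in both repeats, meaning that peaks of the 2 lists had 1 bp or more in common, and such peaks are called shared here. Repeat 1 had 26 shared peaks at the loci and repeat 2 had 25, with 9 and 7 further peaks found in 1 repeat only. A shared peak within 50 kb was the usual case in the genome: 80.6% of 21887 protein-coding genes had one, against 3 of 3 here, and 83.6% of 943 microRNA loci had one, against 2 of 2 here. MicroRNA genes less than 10 kb apart were joined into 1 locus for this count. The shares therefore do not set the 5 loci apart, and the account rests on where the peaks lay and how strong they were. Throughout, tags are sequenced ChIP fragments counted in a peak, and fold enrichment is the authors' ratio of ChIP signal to local background at the summit. The median over all peaks was 12.1-fold and 46 tags in repeat 1, and 10.2-fold and 48 tags in repeat 2. Positions are in GRCm38.

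**Figure D1:**
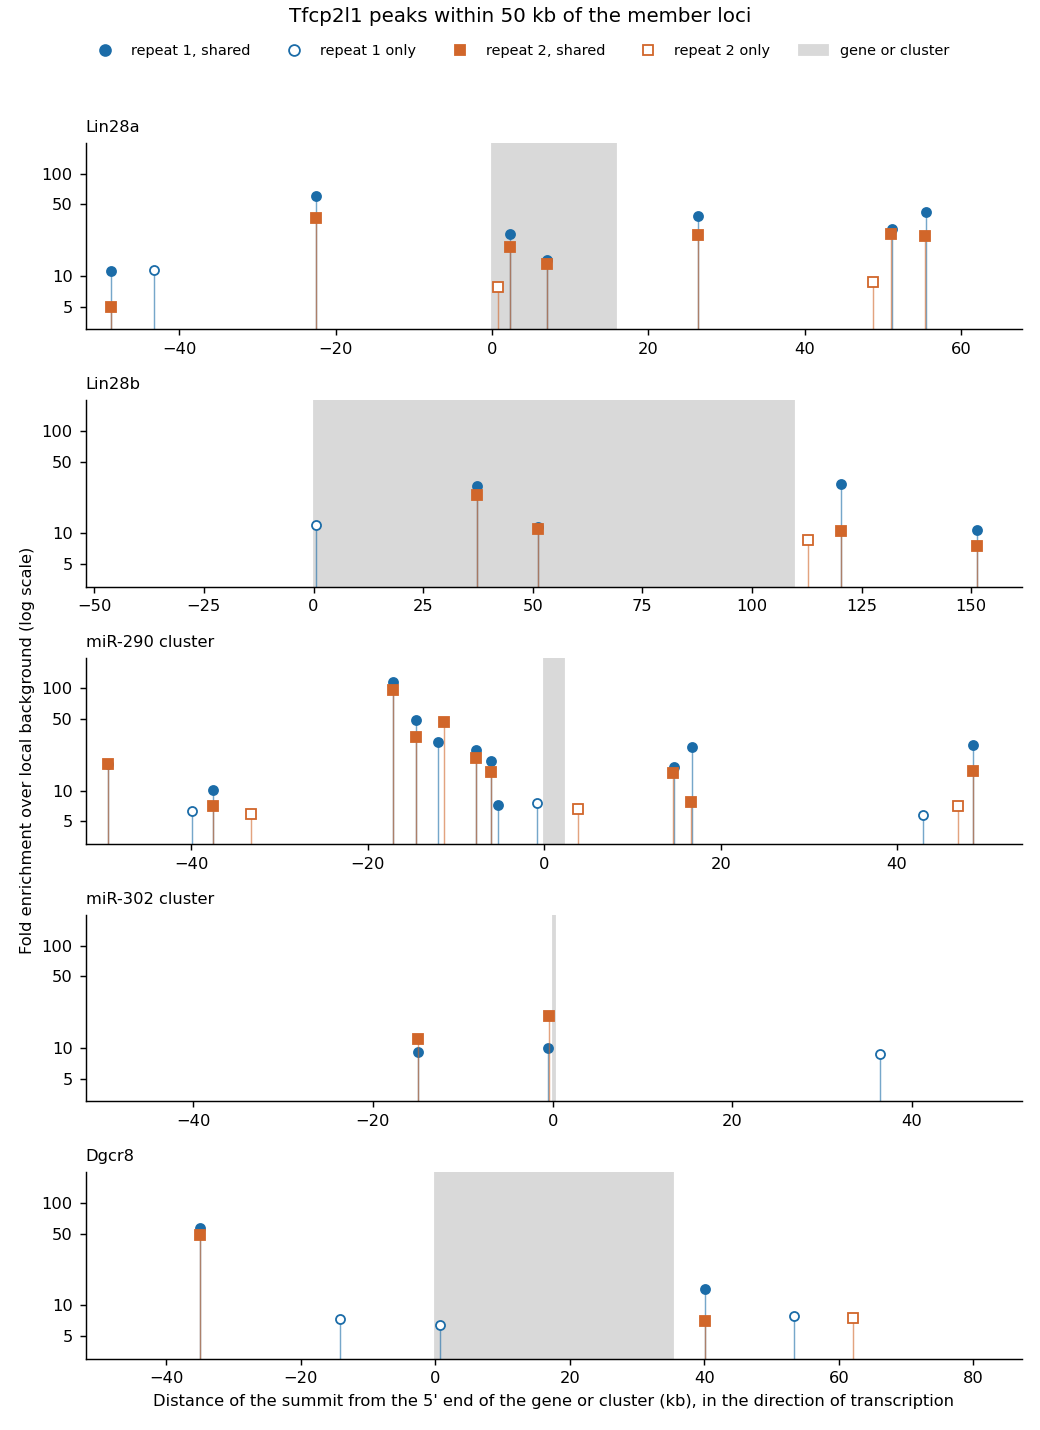
Peaks at the 5 loci. The x axis is the distance in kb of each summit from the 5′ end of the gene or cluster, in the direction of transcription. The y axis is fold enrichment on a log scale, filled symbols are shared peaks and open symbols peaks of 1 repeat, and the grey block is the gene or cluster. The tallest pair is 17.1 kb upstream of the miR-290 cluster, at 115-fold in repeat 1 and 96.5-fold in repeat 2.

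The miR-290 cluster (chr7:3218626-3220841, plus strand) had the most sites, 14 peaks in repeat 1 and 13 in repeat 2, of which 11 and 10 were shared. None of the shared summits lay inside the cluster. On the upstream side there were 8 in repeat 1 and 7 in repeat 2, and on the downstream side 3 in each. Of the 943 microRNA loci, 6.36% had as many shared summits in repeat 1 and 9.33% in repeat 2, where the median locus had 4. At the protein-coding genes Lin28a, Lin28b and Dgcr8 the shared peaks numbered 7, 4 and 2.

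The strongest site of all 5 loci was 17.1 kb upstream of Mir290a, at chr7:3200957-3202297 in repeat 1. It held 413 tags in repeat 1 and 472 in repeat 2, at 115-fold and 96.5-fold enrichment (105.8 ± 13.0, SD, n = 2). Both values were near the top of their lists, at the 99.2 and 99.7 percentiles of fold enrichment, and the authors' score stood at 3100 in both, a value at which 964 and 664 peaks are tied. A shared summit as enriched as this was present at 4.14% of the microRNA loci in repeat 1 and 1.38% in repeat 2. Scaled to the filtered ChIP tags of each library, the 2 repeats differed by less than the counting error, with a ratio of repeat 2 to repeat 1 of 0.981 (95% interval 0.858 to 1.12).

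Several further shared sites lay between this peak and the cluster. The site 14.5 kb upstream had 173 tags and 49.3-fold enrichment in repeat 1, and 161 tags and 33.8-fold in repeat 2. Next, a broad peak had its summit 12.1 kb upstream in repeat 1, with 342 tags, and 11.3 kb upstream in repeat 2, with 346 tags. Its fold enrichment was 29.7 in repeat 1 and 47.1 in repeat 2, one of the 3 matched peaks that were higher in repeat 2. The site at 7.74 kb had 77 and 91 tags, at 25.1-fold and 20.8-fold. Closest to the cluster, repeat 1 had separate peaks at 5.996 kb (99 tags, 19.3-fold) and 5.196 kb (29 tags, 7.25-fold), which 1 peak of repeat 2 spanned with 135 tags and 15.3-fold enrichment at 5.989 kb.

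Within 20 kb upstream of Mir290a there were thus 6 shared peaks in repeat 1 and 5 in repeat 2. They covered 7.41 kb and 7.89 kb of a stretch of 12.95 kb and 13.06 kb. Mir290a was the nearest gene of any kind to each of their summits, but Nlrp12 was almost as near. The strongest summit in repeat 1 was 17103 bp from Mir290a and 17120 bp from Nlrp12. Together these shared peaks held 1133 tags in repeat 1 and 1205 in repeat 2. This was 76.6% of the 1479 tags in shared peaks of the locus in repeat 1, and 81.5% in repeat 2, whose total was also 1479 tags.

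The remaining shared peaks of the locus lay nearer to other genes than to the cluster, by wider margins. The peak 49.4 kb upstream was 10 bp from the end of the protein-coding gene AU018091 (51 and 70 tags, 18.4-fold and 18.05-fold). The peak 37.6 kb upstream was 17 bp from Gm3375 in repeat 1 and had 25 and 31 tags. Downstream, the peaks at 12.5 kb and 14.5 kb fell inside Nlrp12, which encodes a cytoplasmic NLR-family protein and overlaps the cluster. At 12.5 kb the fold enrichments were 16.9 and 14.9. At 14.5 kb they were 26.6 and 7.81, with 123 tags in repeat 1 and 44 in repeat 2. The last peak, 46.4 kb downstream, had 28.02-fold and 15.7-fold enrichment.

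Next to the hairpins themselves, peaks were present in 1 repeat at a time. A peak of repeat 1 had its summit 0.867 kb upstream of Mir290a with 19 tags and 7.55-fold enrichment, and a peak of repeat 2 lay 1.577 kb downstream of Mir295 with 29 tags and 6.54-fold. The other single-repeat peaks of the locus, 2 per repeat, had 5.8-fold to 7.14-fold enrichment. All 6 were below the median fold of their lists.

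The miR-302 cluster differed from the miR-290 cluster in having its nearer shared site beside the hairpins. The fold enrichment of this site was low in repeat 1, at the 38.9 percentile, but at the 79.4 percentile in repeat 2. This cluster (Mir302a to Mir367, chr3:127545496-127545807, plus strand) had 3 peaks in repeat 1 and 2 in repeat 2, of which 2 were shared. The nearer summit lay 0.552 kb upstream of Mir302a in repeat 1, with 33 tags and 10.01-fold enrichment, and 0.445 kb upstream in repeat 2, with 84 tags and 20.4-fold. The value of repeat 2 was the higher one on both measures, and the mean of the fold enrichment was 15.2 ± 7.35 (SD, n = 2). A shared summit within 1 kb was present at 12.8% of microRNA loci. In strength the site was ordinary: 79.2% of microRNA loci had a shared peak as high anywhere within 50 kb in repeat 1, and 52.8% in repeat 2.

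Mir302b and Mir302c lie between that summit and Mir302a. The peak of repeat 1 (chr3:127544625-127545368) covered both mature microRNAs of Mir302b, and the peak of repeat 2 (chr3:127544490-127545605) also covered those of Mir302c and miR-302a-5p. The summits were at -145 bp in repeat 1 and -38 bp in repeat 2 from the start of Gm51018, a long noncoding RNA gene whose RefSeq span holds the cluster. They were also inside Larp7, which encodes a protein bound to 7SK RNA. The farther shared site, 14.97 kb upstream, had 29 and 52 tags, at 9.18-fold and 12.2-fold. Another peak, in repeat 1 alone, fell inside Zgrf1 at 8.7-fold.

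The 300 bp promoter windows (250 bases before to 50 after a start site, RefSeq, GRCm38.p6) are shown for the start sites where a peak covered bases of the window. Capitals mark matches to a paired Tfcp2l1-type motif, CCAG followed after 6 bases by CCNG, searched on both strands. No other motif was searched. The first is the start of Gm51018 at the miR-302 cluster (chr3:127544839-127545138, plus strand) and the second that of Lin28a (chr4:134018767-134019066, minus strand), both printed 5′ to 3′ along the gene.
Gm51018 promoter window: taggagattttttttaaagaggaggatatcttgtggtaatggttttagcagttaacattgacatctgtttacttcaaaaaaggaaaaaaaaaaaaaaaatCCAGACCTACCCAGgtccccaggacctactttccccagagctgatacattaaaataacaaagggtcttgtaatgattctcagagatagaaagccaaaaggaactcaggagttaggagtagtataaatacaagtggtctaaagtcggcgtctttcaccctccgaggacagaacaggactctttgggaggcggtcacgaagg
Lin28a promoter window: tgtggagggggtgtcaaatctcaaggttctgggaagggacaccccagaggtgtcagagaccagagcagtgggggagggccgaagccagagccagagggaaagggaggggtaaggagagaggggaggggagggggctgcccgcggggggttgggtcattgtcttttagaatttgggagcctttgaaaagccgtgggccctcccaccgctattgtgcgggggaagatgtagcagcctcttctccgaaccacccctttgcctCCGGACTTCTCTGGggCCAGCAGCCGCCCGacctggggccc
All 300 bases of the Gm51018 window lay under the shared peak in both repeats. Its single match is at positions -150 to -137 from the start (chr3:127544939-127544952). The summit of repeat 1 lay within the match and the summit of repeat 2 was 99 bp from it. In the Lin28a window there are 2 matches, at positions 9 to 22 on the opposite strand and 25 to 38 on the strand of the gene.

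These matches are letters in a window and were not tested as sites. The motif was present in 10.3% of all 32841 promoter windows, in 16.8% of the 6351 under a shared peak and in 8.71% of the 26490 others. Windows under a shared peak were 19.3% of the total, against 1 of the 5 start sites used for the loci. The windows of Lin28b, Dgcr8 and the noncoding gene D7Ertd143e, which overlaps the miR-290 cluster, held no match and lay under no peak of either repeat. The D7Ertd143e start, chr7:3218784, lies beyond the mature products of Mir290a, which end at 3218697. The Lin28b start, chr10:45470201, lies inside a RefSeq span that ends at 45486314. Other start sites of these loci were not examined, so their promoters were not shown to be unbound.

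Lin28a (chr4:134003330-134019196, minus strand) had 8 peaks in repeat 1 and 9 in repeat 2, of which 7 were shared. Of all protein-coding genes, 27.5% had as many shared summits, with a median of 4. Fold enrichment of the shared peaks ran from 11.2 to 59.9 in repeat 1 and from 5.0 to 36.5 in repeat 2. Of their summits 2 were inside the gene, 2 upstream and 3 downstream.

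Inside Lin28a, the summit nearest the start site was 1.92 kb into the transcribed region in both repeats, with 135 and 82 tags at 25.7-fold and 19.2-fold. Scaled to depth, repeat 2 had 0.521 times the tags of repeat 1 (95% interval 0.391 to 0.691), below the median ratio of 0.832 over all matched peaks. The other internal summit, 6.71 kb from the start site in repeat 1, had 119 and 112 tags at 14.3-fold and 12.95-fold. A weak peak of repeat 2 alone lay 341 bp from the start site, with 26 tags and 7.85-fold enrichment, and covered 179 bases of the promoter window printed above. Its summit was 319 bp and 303 bp from the motif matches there.

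The strongest site at Lin28a was outside the gene, 22.6 kb upstream at chr4:134041252-134042356 in repeat 1. It had 176 and 139 tags, at 59.9-fold and 36.5-fold (48.2 ± 16.5, SD, n = 2), in the 94.4 and 92.1 percentiles of the lists. The nearest gene was Zfp683, at 9434 bp, and the nearest with the protein-coding label in the RefSeq set used was Crybg2, at 18.97 kb. Of all protein-coding genes, 26.2% had a shared peak this high within 50 kb in repeat 1 and 31.0% in repeat 2. Downstream, the sites at 39.6 kb (126 and 99 tags, 42.4-fold and 24.7-fold) and 35.3 kb (159 and 119 tags, 28.99-fold and 25.9-fold) lay near Hmgn2, which encodes a nucleosome-binding protein. The summit at 35.3 kb was 69 bp from that gene in repeat 1. The site 10.5 kb downstream fell inside Dhdds, a gene of dolichol synthesis (105 and 93 tags, 38.7-fold and 25.1-fold). The weakest shared site, 48.8 kb upstream inside Crybg2, had 83 and 64 tags at 11.2-fold and 5.0-fold. Single-repeat peaks lay inside Crybg2 in repeat 1 (11.5-fold) and inside Dhdds in repeat 2 (8.63-fold).

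Lin28b (chr10:45376617-45486314, minus strand) had 5 peaks in each repeat, of which 4 were shared, and 50.2% of protein-coding genes had as many. The strongest, inside the gene 21.1 kb from the start site, had 90 and 98 tags at 28.99-fold and 23.6-fold (26.3 ± 3.85, SD, n = 2). A second internal site, 35.2 kb from the start site, had 33 and 41 tags at 11.6-fold and 10.99-fold. Their depth-scaled tag ratios of 0.934 (95% interval 0.695 to 1.26) and 1.07 (0.658 to 1.74) differed from equality by less than the counting error.

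The downstream sites of Lin28b were inside or next to Bves, which encodes a Popeye-domain membrane protein. The site at 10.7 kb had 91 tags and 30.02-fold enrichment in repeat 1 but 37 tags and 10.6-fold in repeat 2. Its tag ratio of 0.349 (0.231 to 0.517) ranked at the 1.05 percentile of all matched peaks. By repeat 1 alone it would be the strongest site at Lin28b, by a small margin. The site at 41.6 kb had 39 and 43 tags, at 10.6-fold and 7.46-fold. Peaks of single repeats lay in the gene in repeat 1 (12.1-fold) and 3.02 kb downstream in repeat 2 (8.63-fold). The peak of repeat 1 (32 tags, summit at chr10:45485758) lay upstream of the start site used, chr10:45470201. Its summit was close to the 5′ end of the RefSeq span, 45486314.

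Dgcr8 (chr16:18253948-18289251, minus strand) had no shared peak inside the gene. Its shared sites were 2, against 5 peaks in repeat 1 and 3 in repeat 2 in all, and 69.4% of protein-coding genes had as many. The strong one lay 35.0 kb upstream inside Tango2, with 248 and 227 tags at 56.6-fold and 48.7-fold (52.6 ± 5.59, SD, n = 2), the 93.8 and 95.8 percentiles. A shared peak as high was present within 50 kb of 28.5% of protein-coding genes in repeat 1 and 19.5% in repeat 2. The weak one lay 4.83 kb downstream inside Trmt2a, a transfer RNA methyltransferase gene, with 68 tags and 14.6-fold in repeat 1 and 26 tags and 7.06-fold in repeat 2. Close to the start of Dgcr8, at 0.626 kb into the gene, only repeat 1 had a peak (31 tags, 6.35-fold). The remaining single-repeat peaks lay inside Tango2 in repeat 1 (7.37-fold), 0.687 kb from Zdhhc8 in repeat 1 (7.83-fold) and inside Zdhhc8 in repeat 2 (7.46-fold).

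**Figure D2:**
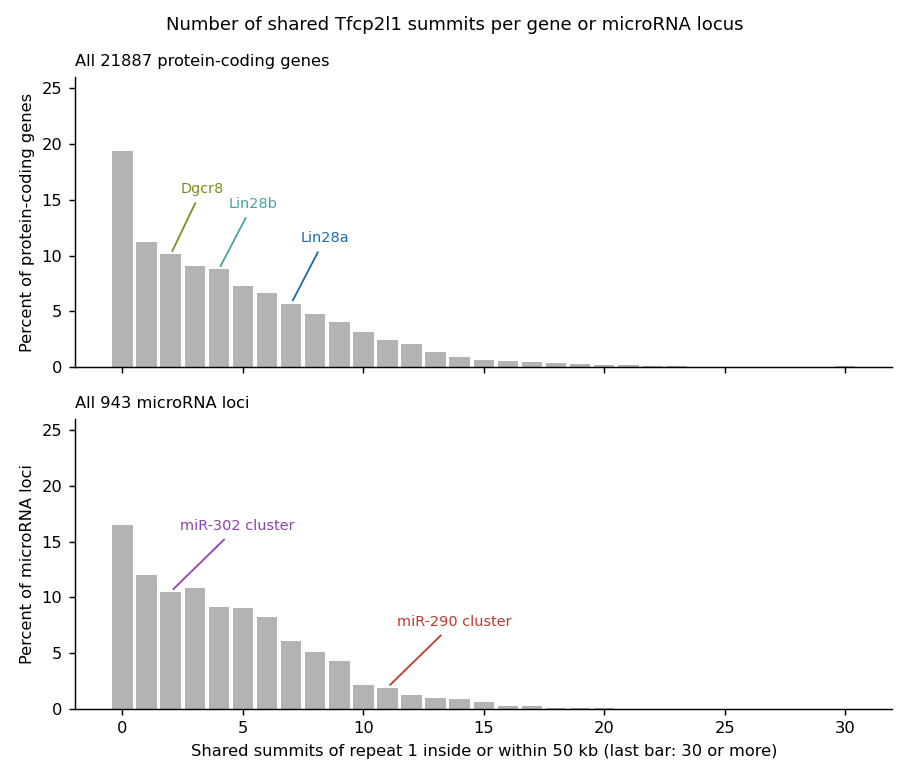
Number of shared summits of repeat 1 inside or within 50 kb (x axis) against the percent of genes or loci with that number (y axis), for 21887 protein-coding genes above and 943 microRNA loci below. Lines point to the bars that hold the loci described: Dgcr8 with 2, Lin28b with 4, Lin28a with 7, the miR-302 cluster with 2 and the miR-290 cluster with 11.

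A nearby summit is not an assignment to a gene. Of the 26 shared summits of repeat 1, a member gene held or was the nearest gene of any kind to 10, another gene held 8, and another gene was nearest without holding 8. The 10 include the 6 summits upstream of Mir290a, which were almost as near to Nlrp12. Within 10 kb of the loci there were 9 shared peaks in repeat 1 and 8 in repeat 2. Each of the 5 loci had at least 1 of them, where 64.5% of protein-coding genes and 52.3% of microRNA loci had one. Within 10 kb the highest mean fold enrichment of the loci was 26.3 at Lin28b, against 23.0 at the miR-290 cluster. This difference was within the SD between repeats of the Lin28b site (3.85) but larger than that of the miR-290 site (3.055). The miR-290 cluster did not lead within 10 kb, so its lead rests on sites more than 10 kb away. The windows are unlike, because Lin28b is 109.7 kb long and the miR-290 cluster 2.216 kb. The Lin28b site lies inside the gene, 21.1 kb from the start site. At the edge of the 50 kb window, the last shared summits inside were at 48.8 kb for Lin28a (11.2-fold in repeat 1), 41.6 kb for Lin28b (10.6-fold), 49.4 kb for the miR-290 cluster (18.4-fold), 14.97 kb for the miR-302 cluster (9.18-fold) and 35.0 kb for Dgcr8 (56.6-fold). The first ones outside were at 59.1 kb (22.7-fold), 87.2 kb (7.25-fold), 62.8 kb (12.6-fold), 82.3 kb (9.53-fold) and 54.6 kb (10.97-fold), in the same order.

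Of the shared peaks, 24 matched a single peak of the other repeat. Fold enrichment was lower in repeat 2 for 21 of them and higher for 3, namely both sites at the miR-302 cluster and the broad site upstream of Mir290a. Lower values in repeat 2 were also the rule in the genome, at 78.2% of 41701 matched pairs. The median ratio of repeat 2 to repeat 1 was 0.781 at the loci and 0.761 over all pairs. Summits of 21 of the 24 pairs lay within 100 bp of each other, and the median distance was 34.5 bp, against 28 bp over all pairs.

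**Figure D3:**
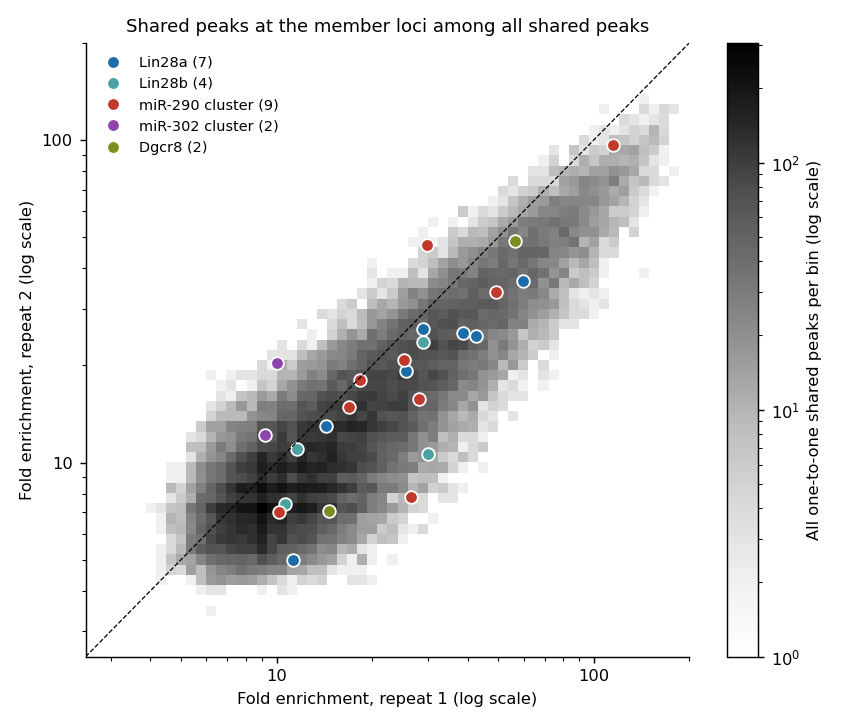
Fold enrichment of matched shared peaks in repeat 1 (x axis) and repeat 2 (y axis), both on log scales. Grey shading counts all 41701 matched pairs, coloured points are the 24 pairs at the loci and the dashed line marks equal values. Most points lie below the line, and the miR-302 pairs lie above it.

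Tags scaled to library depth were lower in repeat 2 at 18 of the 24 sites and higher at 6. The broad site upstream of Mir290a was higher in repeat 2 by fold enrichment (ratio 1.58) but lower by scaled tags (0.868). Of the 24 ratios, 16 had a 95% interval that holds the median ratio of all pairs, 0.832. The interval was below it for 5 and above it for 3. Lowest were the site 14.5 kb downstream of the miR-290 cluster (0.307, interval 0.212 to 0.436), the site beside Dgcr8 (0.328, 0.2003 to 0.523) and the site 10.7 kb downstream of Lin28b. These ratios are below the central 95% of all pairs, which starts at 0.406. Highest was the site beside the miR-302 cluster, with a ratio of 2.18 (1.44 to 3.37), above the upper end of that range, 1.61. The intervals cover counting error only, and with 1 ChIP library per repeat no test between repeats was made.

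**Figure D4:**
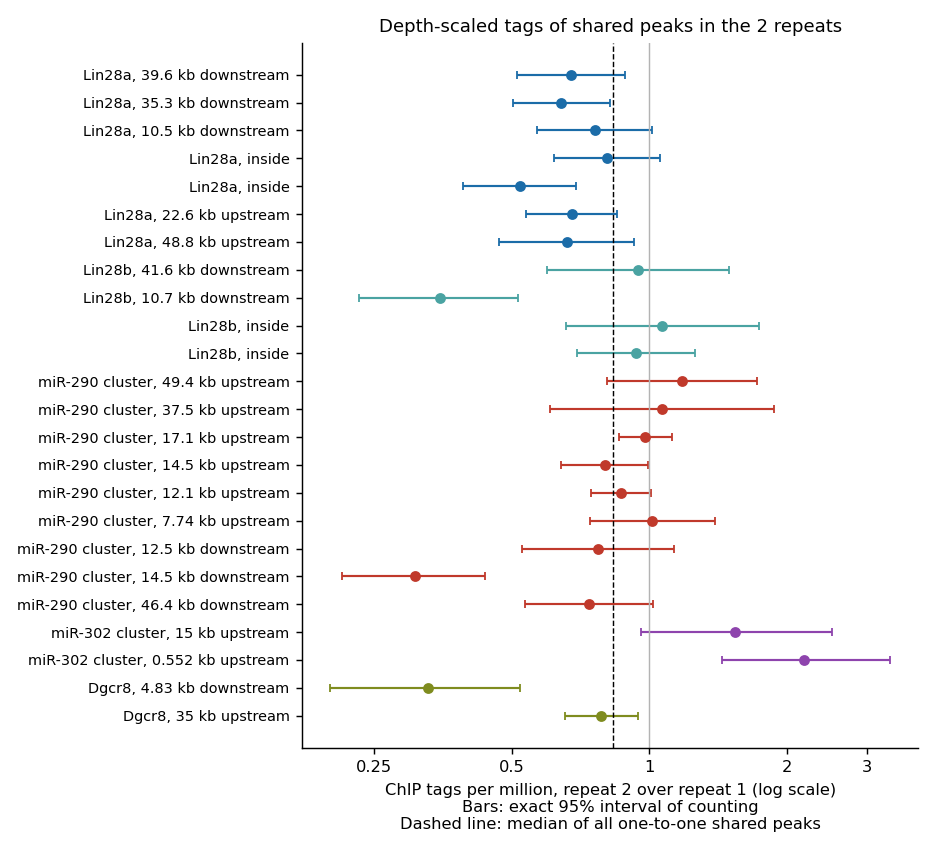
Ratio of ChIP tags scaled to library depth, repeat 2 over repeat 1, on a log scale, for the 24 matched shared peaks at the loci. Points are ratios, bars exact 95% counting intervals, the grey line equality and the dashed line the median of all matched pairs, 0.832. The site 0.552 kb upstream of the miR-302 cluster stands highest at 2.18.

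Peaks of 1 repeat only were weak. The 9 of repeat 1 had 19 to 50 tags and 5.8-fold to 12.1-fold enrichment, with a median of 7.55. The 7 of repeat 2 had 26 to 39 tags and 5.89-fold to 8.63-fold, with a median of 7.46. Shared peaks ranged from 7.25-fold to 115-fold in repeat 1 and from 5.0-fold to 96.5-fold in repeat 2, so the ranges overlap.

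Genes that act with the members were counted from 5 lists of 61 genes. In all, 58 of 61 had a shared peak within 50 kb (95.1%, where 80.6% of protein-coding genes and 83.6% of microRNA loci had one). Within 10 kb 52 had one (85.2%, against 64.5% and 52.3%). Among the 61 genes, 19 had the same strongest peak as another listed gene, so the genes are not independent. All 12 genes of the microprocessor and Dicer machinery had one within 10 kb, where the background was 64.5% of protein-coding genes. The strongest were at Ago2, the slicing Argonaute (143.9-fold and 108.9-fold, 16 shared summits), Drosha (81.0-fold and 53.0-fold), Ago3 (67.6-fold and 57.7-fold) and the Dicer cofactor gene Tarbp2 (61.95-fold and 56.1-fold). The Tarbp2 site lay 5.49 kb outside that gene and was nearest to Map3k12, and the others lay inside their genes. In repeat 1 the best site of Drosha, 81.0-fold, was higher than that of its partner Dgcr8, 56.6-fold. In repeat 2 the values were closer, 53.0-fold and 48.7-fold. The Drosha site lay inside the gene and the Dgcr8 site 35.0 kb upstream, so the 2 are unlike. The list median was 56.05-fold and 40.4-fold.

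Partners and effectors of Lin28 had a shared peak at 11 of 11 genes within 50 kb and at 10 of 11 within 10 kb, where 80.6% and 64.5% of protein-coding genes had one. The leading sites were at Msi1, an RNA-binding protein gene (155-fold and 73.5-fold, 19 shared summits), Igf2bp3, whose messenger RNA is a let-7 target (148-fold and 87.0-fold), Dis3l2, the nuclease that degrades uridylated pre-let-7 (104-fold and 66.7-fold), and the let-7 target Hmga2 (72.1-fold and 59.7-fold). The list median was 55.7-fold and 33.8-fold. Named after their values were seen, Tut4 and Tut7, which add uridine to pre-let-7 held by Lin28a, had only weak sites (8.66-fold and 12.2-fold, 11.7-fold and 7.0-fold). The Tut4 site was 20.8 kb from the gene and nearest to Orc1. Also named after its values were seen, Trim71 had the most shared summits of the lists, 22 in repeat 1 and 21 in repeat 2.

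The let-7 genes, whose products Lin28 proteins hold back, had a median of 1 shared summit per gene, where the median of the 943 microRNA loci was 4. The medians of the other lists ran from 4 to 9. Most of those lists hold protein-coding genes, whose windows include the whole gene and are therefore longer. Of 12 genes, 9 had a shared summit within 50 kb (75.0%, against 83.6% of microRNA loci) and 4 within 10 kb (33.3%, against 52.3%). With all peaks of repeat 2 alone, 11 of 12 had a summit within 50 kb (91.7%, against 85.9% of microRNA loci). With all peaks of repeat 1 alone the count stayed at 9 (75.0%), so the lower share at 50 kb depends on the repeat used. The genes gained in repeat 2, Mir98 and Mirlet7f-2, are neighbours on chromosome X with 1 summit each. The list holds neighbours that share windows, so it has fewer independent loci than genes. The median of the strongest peaks was 12.1-fold and 12.6-fold. Mirlet7g stood above the others, with 9 shared summits and 51.2-fold and 50.2-fold enrichment. Only 2 of the 9 were within 10 kb, and the strongest was 6.73 kb away and nearest to Wdr82. Mirlet7b and Mirlet7c-2 share a site (25.1-fold and 12.6-fold), and Mirlet7e had 13.5-fold and 14.1-fold. Mir98, Mirlet7c-1 and Mirlet7f-2 had no shared summit.

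Of 14 other microRNA genes of stem cells, 14 had a shared summit within 10 kb, against 52.3% of microRNA loci. Neighbours count singly in this list but are joined in the background, so the shares are not like for like. Of the 14 genes, 10 had the same strongest peak as another listed gene. The list median was 52.3-fold and 22.5-fold for the strongest peak. The strongest within 50 kb was 48.65 kb from Mir106a and nearest to Ccdc160 (121-fold and 64.0-fold). Mir200b and Mir429 share a site 3.75 kb from Mir200b (111-fold and 51.8-fold), and Mir182 and Mir183 share another 8.01 kb from Mir183 (86.9-fold and 77.7-fold). The best site of the miR-290 cluster was above all 14 in repeat 2, at 96.5-fold, and below Mir106a in repeat 1, at 115-fold. The reported targets of the miR-290 and miR-302 families had a shared summit within 10 kb at 12 of 12 genes, against 64.5% of protein-coding genes. The strongest within 50 kb lay inside the nuclear receptor gene Nr2f2 (72.5-fold and 36.5-fold), inside Lats2, a kinase gene of the Hippo pathway (52.1-fold and 36.1-fold), 24.2 kb from the small GTPase gene Rhoc (86.0-fold and 41.6-fold) and 37.7 kb from Mbd2, which encodes a protein that binds methylated DNA (50.6-fold and 60.4-fold). The nearest genes to the last pair of sites were Mov10 and Poli.

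**Figure D5:**
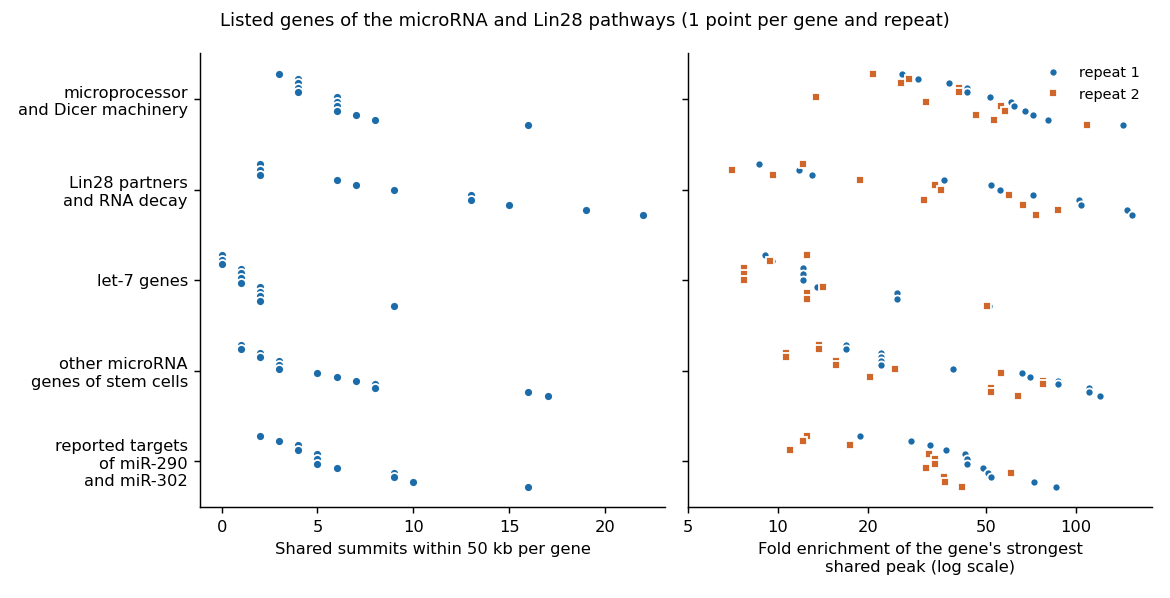
Shared summits within 50 kb (left, x axis) and fold enrichment of the strongest shared peak (right, x axis, log scale) for each gene of the 5 lists, which are the rows. Circles are repeat 1 and squares repeat 2, 1 point per gene. The let-7 genes have 2 summits or fewer each, apart from Mirlet7g at 9 summits and 51.2-fold.

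Depth and build apply to every value given. The ChIP libraries held 19353473 and 22555373 tags after duplicate filtering, and the input libraries 18446758 and 23825930. The highest false discovery rate in either list was 0.12%. The positions fit GRCm38: 14.28% of summits of repeat 1 had a protein-coding gene end within 1 kb, which fell to 5.35% once all summits were moved by 100 kb, and peaks on chromosome Y reach 90.8 Mb.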

How the data were processed

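The deposited data are 2 peak lists, 1 per repeat, in which the authors called each ChIP library against its own input, without pooling. Peaks were called with MACS 1.4.1, per the file headers, at a p-value threshold of 1e-05, with up to 2 duplicate tags kept per position and a local background over 1000 and 10000 bp. CASAVA 1.8.2 and mm9 stand in the submitters' processing notes, while the deposited positions fit GRCm38. Which aligner was used is not given in the sources. Deposited tag counts are raw whole numbers per peak. The score deposited by the authors is 10 times -log10 of the p-value, the deposited fold enrichment is a ratio to local background, and the deposited false discovery rate is a percent.

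Summits were placed at start plus summit offset minus 1 and set against RefSeq genes of GRCm38.p6. Peaks with 1 bp or more in common between repeats were called shared, and matched if that overlap was one-to-one. Depth-scaled tag ratios have exact (Clopper-Pearson) 95% intervals, which cover counting error only. Mean ± SD is over the 2 repeats. The microRNA and promoter sequences come from RefSeq tables of the same assembly, where 5 start sites of the loci were found. Sequences under peaks outside those windows were not analysed here. Computation used Python 3.11.15, numpy 2.4.6, pandas 2.3.3 and scipy 1.17.1, tested on simulated peak lists.

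The members and the pathway lists were chosen with earlier results of these data known. Named genes are the members, genes that hold or are nearest to a shared summit at them, and up to 4 genes per list by the mean rank of their strongest shared peak, with up to 4 lacking one. Gm51018 and D7Ertd143e (start sites at the clusters) and Zgrf1 and Zdhhc8 (which hold peaks of 1 repeat) are named outside that rule. So are Ccdc160, Map3k12, Mov10, Orc1, Poli and Wdr82 (nearest to sites of listed genes), and genes said to be named after their values were seen. No test between conditions was possible with 1 condition. Alternatives changed the definition of a shared peak, the fold and score limits, the window, the ranking, the extent of the microRNA loci and the repeats used.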

Additional observations from a re-analysis of the deposited data

How the results depend on the processing

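Each of the 5 loci kept a peak under every alternative tried. The peaks were shared ones, except where a repeat was left out and all peaks of the other repeat were counted. Most protein-coding genes also kept a peak. Their share ran from 64.5% within 10 kb to 87.0% within 100 kb over the alternatives for which it was counted. The result therefore does not set the 5 loci apart. The total of 26 shared peaks became 9 within 10 kb and 49 within 100 kb.

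The nearest shared summit of the miR-290 cluster went from 5196 bp to 5996 bp when summits had to lie within 100 bp, and likewise at 50% reciprocal overlap, at 10-fold enrichment in both repeats or at a score of at least 100. That of the miR-302 cluster went from 552 bp to 14974 bp when summits had to lie within 100 bp of each other, which drops the stronger of its 2 shared sites. That of Dgcr8 went from 4825 bp to 35005 bp at 10-fold enrichment and at a score of 100. With 1 repeat left out, the nearest peak was 867 to 1577 bp from the miR-290 cluster, 445 to 552 bp from the miR-302 cluster and 0 to 4865 bp from Dgcr8.

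With a 10 kb window the mean fold enrichment of the strongest shared peak was 22.5 at Lin28a, 23.0 at the miR-290 cluster and 10.8 at Dgcr8, and with 100 kb it was 85.7 at the miR-302 cluster. The order of the loci depends on the window: within 10 kb Lin28b (26.3) was highest and Dgcr8 lowest, below the miR-302 cluster (15.2). A window includes the whole gene or cluster, so a long gene such as Lin28b is searched over a longer stretch. Dgcr8 and the miR-302 cluster kept 1 shared peak each at 10-fold or at a score of 100. Repeat 1 alone gave 5 peaks at Dgcr8. The let-7 list fell to 4 of 12 genes at 10-fold or within 10 kb and to 5 at a score of 100. It rose to 11 (91.7%) with repeat 2 alone and stayed at 9 (75.0%) with repeat 1 alone. Of the main results 78 stayed and 18 moved, and of the values for single loci and lists 72 stayed and 18 moved. A count stayed if it was within 1.5-fold of the main value, and a fold enrichment or distance if within the SD between repeats. Leaving out 1 repeat could hardly move the strongest peak under this rule, because the main value is the mean of both repeats. The tally is therefore not a measure of robustness.

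No paired analysis was possible because the design has 1 condition, and each input was already used up in the peak calling. Depth limits the weak sites: a peak of 26 tags has a wide counting interval, and the absence of a peak in 1 repeat was not tested as a difference.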
